A study of Homo sapiens with 6 samples.

Results

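Collagens are the main structural proteins of the extracellular matrix. Each collagen molecule is a triple helix of alpha chains rich in glycine and proline. The chains are hydroxylated and folded in the endoplasmic reticulum, secreted, trimmed and cross-linked. Fibrillar chains build cables, type IV chains build the sheet of basement membranes, FACIT chains decorate fibrils, and a few chains span the plasma membrane. In brain, basement membranes line vessels and the pial surface, and fibrillar collagen is otherwise sparse.

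The collagen genes were taken as all protein-coding genes whose symbol is COL, a number, A and a number. There were 44 of them among 60664 genes. Of these 23 passed the low-count filter and were tested, and 17 reached 1 CPM in at least 3 libraries (CPM, a gene's counts scaled to the size of its library). The cells were D283 Med, a human Group 3 medulloblastoma line with an amplified MYC gene. All had been transfected with an LNA GapmeR, an antisense oligonucleotide that recruits RNase H to its target RNA. The 3 SCR libraries (controls) carried a scrambled GapmeR and the 3 KD libraries (knockdown) one against the long non-coding RNA lncMB3. The level of lncMB3 itself was not analysed here, so the knockdown is known only from the labels, and the loss of lncMB3 cannot be told apart from other effects of its GapmeR. Both groups come from 1 cell line. No label says that the libraries were grown separately, and a p-value here then reflects only how far the libraries scatter, which may be technical.

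Total counts were between 17072573 and 20035834 in 5 libraries and 7765826 in knockdown library 1, where low genes are measured least precisely. The floors of 3 counts given here cover counting error only, while a ± value is an SD between libraries or an SE of the fit. The labelled cell type had its markers: OTX2, CRX, NRL, NEUROD1 and MYC were detected in all libraries, while the neuronal marker STMN2 was at 0 in all 6. The neuronal marker SYP was at 9.19 to 11.7 CPM in controls and 7.51 to 9.13 CPM in the knockdown. MAP2 was at 0.937 to 1.40 CPM in controls and 1.51 to 1.72 CPM in the knockdown, and neither was called. These Group 3 and neuronal markers also moved with the groups, with 5 of 10 tested lower (NEUROD1, IMPG2, CRX, OTX2 and NRL), GABRA5 higher (15.9% of all tested genes fell and 15.9% rose) and a sum of 2896 to 3141 CPM in controls and 2727 to 2813 CPM in the knockdown. Of 10 mesenchymal and fibroblast markers 6 were tested, with 3 lower (ACTA2, PDGFRA and DCN; 1 without control 2 or knockdown library 3) and 0 higher, and the summed level of all 10 was 28.4 to 30.6 CPM in controls and 22.9 to 23.9 CPM in the knockdown. PDGFRB was at 15.16 to 16.15 CPM in controls and 11.37 to 14.57 CPM in the knockdown and was not called (-0.28, adjusted p = 0.0799). TAGLN was higher in every knockdown library than in every control but was not called (0.67, adjusted p = 0.0812). TWIST1 was not called either (0.19, adjusted p = 0.507). In the same list THY1 was at 0 in every library. DCN passed the low-count filter through the controls alone, and 2 of the 5 markers that passed in both groups were lower. FAP and PRRX1 were under 0.1 CPM in each library. Of the collagens that fibroblasts make in quantity, COL3A1 had no count in any library and COL1A2 had 0 to 4. COL1A1, in contrast, was detected in every library, at 18.1 to 21.8 CPM in controls and 13.7 to 17.3 CPM in the knockdown. Summed endothelial markers lay at 1.52 to 2.52 CPM in controls and 0.938 to 1.83 CPM in the knockdown, with CDH5 at 0 throughout. In that list KDR was at 0.685 to 1.58 CPM in controls and 0.469 to 1.17 CPM in the knockdown. VWF was at 0.734 to 0.937 CPM and 0.365 to 0.678 CPM, and neither was called. Immune markers summed to 1.17 to 1.91 CPM and 0.650 to 2.19 CPM, with AIF1 and CD3E at 0, and glial markers to 3.98 to 5.03 CPM and 3.77 to 4.23 CPM, with MBP at 0. The immune marker CD68 was at 1.12 to 1.81 CPM in controls and 0.650 to 2.19 CPM in the knockdown. The glial marker OLIG2 was at 3.69 to 4.75 CPM and 3.64 to 3.86 CPM, and neither was called. Epithelial markers went from 48.6 to 63.0 CPM in controls to 30.4 to 39.0 CPM in the knockdown, nearly all of it KRT8, which fell, with KRT14 at 0. The part of these markers in the collagen result was not tested.

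The 2 GapmeRs were set against each other to find the transcripts that change when lncMB3 is targeted. Collagen genes were lower in the knockdown and none was higher. Of the 23 tested members 13 fell and 0 rose at an adjusted p under 0.05, against 15.9% of all 14673 tested genes that fell and 15.9% that rose (31.7% in either direction). By edgeR 0 members rose at an unadjusted p under 0.05 either, and 0 rose by DESeq2 or limma-voom. With upper-quartile scaling the split over all genes was 2803 lower and 1773 higher, against 2329 and 2328, and the same 13 collagens fell. Without control 2 or control 3 the falls over all genes numbered 1440 and 1471, and those among collagens 10 and 11. In 15 of the 23 every knockdown library lay below every control, which was so for 23.1% of all tested genes. The median log2 change of the tested members was -0.54, beside 0.00 over all tested genes. A member can pass the low-count filter through its higher group alone, and 5 of the 23 did so through the controls. Of the 17 that reached the filter level in all 6 libraries 12 fell. Among the 14 collagens at 1 CPM or more in all 6 libraries, a level asked of both groups alike, 11 fell, 0 rose and 3 were not called, while 16.5% of all 12689 genes at that level fell and 17.6% rose.

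Summed over all 44 genes, collagen transcripts stood at 1046, 1130 and 1206 CPM in controls 1 to 3 and at 808, 734 and 774 CPM in knockdown libraries 1 to 3. The groups did not overlap, and the mean of 1127 ± 80.5 CPM was 1.46 times the knockdown mean of 772 ± 37.3 CPM (SD, n = 3 each). COL4A1 and COL4A2 held 50.1% of collagen counts in controls and 51.1% in the knockdown, so this pair's share differed little while the whole fell. Fibrillar collagens went from 254 ± 28.0 to 155 ± 1.54 CPM and FACIT collagens from 54.2 ± 5.98 to 38.7 ± 1.84 CPM. In bulk RNA, fewer cells that express a gene and less RNA per cell cannot be told apart.

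**Figure D1:**
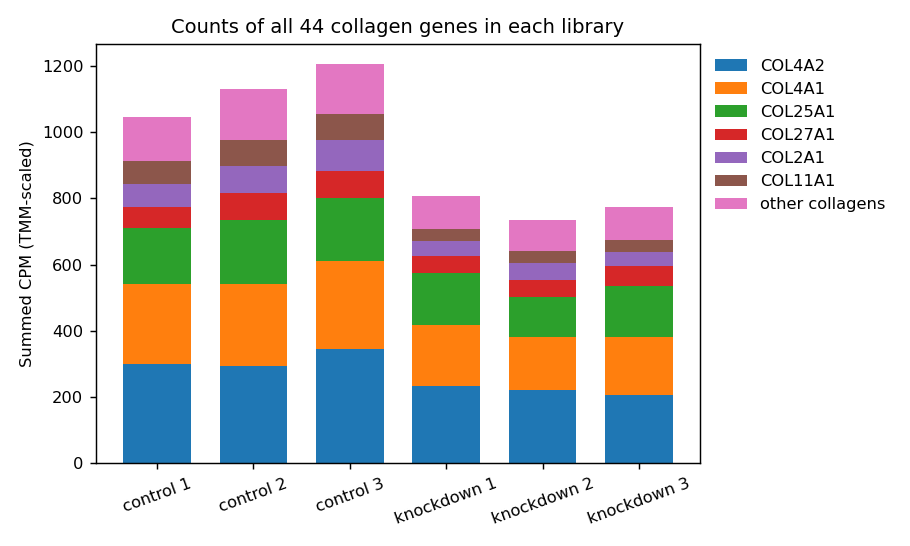
Stacked bars of TMM-scaled CPM of collagen genes in each of the 6 libraries, with the 6 highest genes in colours of their own. The 3 control bars reach 1046 to 1206 CPM and the 3 knockdown bars 734 to 808 CPM, with similar proportions.

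Levels of different genes were compared per kilobase of merged exons (CPM per kb), on the mean of the controls. COL25A1 led with 21.2 ± 1.53 CPM per kb, followed by COL4A1 (17.0 ± 0.923) and COL4A2 (16.2 ± 1.45), which did not differ from each other beyond their spread. COL2A1 followed with 12.2 ± 1.80, COL11A1 with 8.13 ± 0.652 and COL27A1 with 5.43 ± 0.665 CPM per kb. COL19A1, COL9A3, COL4A5 and COL4A4 lay between 3.43 and 2.55 CPM per kb, with COL19A1 and COL9A3 within each other's spread, as were COL4A5 and COL4A4. Per kilobase of the longest coding sequence, the same 10 genes were highest and COL25A1 still led, while COL4A1 and COL4A2 changed places, as did COL11A1 and COL27A1.

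The type IV genes lie in head-to-head pairs, with the members of a pair transcribed away from each other. The segments between them are shown because both genes of a pair fell together. The COL4A1/COL4A2 segment is the 126 bases between the RefSeq starts at chr13:110307158-110307283 (COL4A1 on the minus strand, COL4A2 on the plus strand). In GENCODE these genes overlap (COL4A1 ends at 110307233, COL4A2 starts at 110305812), so no segment lies between their gene ends. The COL4A3/COL4A4 segment is the 111 bases between the GENCODE gene ends at chr2:227164454-227164564 (COL4A4 on the minus strand, COL4A3 on the plus strand). Between the RefSeq starts of that pair lie 418 bases. The 2 segments are thus cut by different rules, and their base content and motif counts are not like for like. Both are plus-strand sequence of GRCh38, read from RefSeq promoter windows of build GRCh38.p14. Capitals mark the CCAAT box and the GC box GGGCGG, found on either strand.
COL4A1/COL4A2: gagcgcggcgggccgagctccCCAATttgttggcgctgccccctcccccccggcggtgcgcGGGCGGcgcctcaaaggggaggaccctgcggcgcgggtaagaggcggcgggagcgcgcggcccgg
COL4A3/COL4A4: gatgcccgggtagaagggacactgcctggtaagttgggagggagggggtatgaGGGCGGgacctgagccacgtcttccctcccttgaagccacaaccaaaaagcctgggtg
The first segment is 80.2% G and C and holds 1 CCAAT and 1 GGGCGG, the second is 61.3% G and C and holds 1 GGGCGG and 0 CCAAT. Neither holds the TATA motif TATAAA.

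Promoter windows were matched by symbol for 32 of the 44 collagens, 11 of them among the 13 that fell. In the 250 bases before the start, on both strands, 4 of these 11 held CCAAT, beside 33.0% of 27305 promoters, and 6 held GGGCGG, beside 42.3%. COL4A1 and COL4A2 are among the holders of both motifs. With 126 bases between their starts, both windows cover that segment, so a match in it is counted for both genes. TATAAA was in 0 of the 11 (11.1% of all promoters). The C/EBP-ATF motif TGATGNAA was also in 0 of the 11, beside 3.2% of all promoters. A match describes letters and shows no binding.

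COL4A1 and COL4A2 encode the chains of the common basement membrane trimer. COL4A1 (chromosome 13, 110148963 to 110307233) was at 240, 247 and 266 CPM in controls 1 to 3 and at 186, 161 and 175 CPM in the knockdown, a 1.44-fold fall (log2 change -0.53 ± 0.09 SE, adjusted p = 0.0006). COL4A2 (chromosome 13, 110305812 to 110513209) was at 300.0, 295 and 346 CPM against 232, 221 and 207 CPM, a 1.42-fold fall (-0.51 ± 0.09, adjusted p = 0.000952). For both genes the lowest control lay above the highest knockdown library. The ratio of COL4A1 to COL4A2 counts was 0.801, 0.837 and 0.771 in controls and 0.802, 0.727 and 0.847 in the knockdown (exact 2-sided permutation p = 0.9, 0.9 adjusted over 4 ratios). The ratios overlapped between groups, and 3 against 3 libraries cannot give a p under 0.1, so this does not show that the ratio was the same.

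COL4A3, COL4A4 and COL4A5 encode the chains of the trimer found in glomerular and other specialised basement membranes, and all 3 fell. COL4A4 (chromosome 2, 227002711 to 227164453) went from 22.9, 26.2 and 27.9 CPM to 12.5, 10.3 and 10.8 CPM, 2.33-fold (-1.22 ± 0.12, adjusted p = 3.26e-05). COL4A3 (chromosome 2, 227164565 to 227314792) was much scarcer, at 2.58, 4.16 and 3.41 CPM in controls and 0.780, 1.04 and 0.990 CPM in the knockdown, 3.49-fold lower (-1.80 ± 0.27, adjusted p = 0.000408). This was the largest fall among the collagens. The knockdown values rest on 6, 20 and 19 counts. The antisense gene MFF-DT overlaps 120 exon bases of COL4A3, and without a stated strand setting reads from the 2 cannot be told apart there. MFF-DT itself had a log2 change of -0.02 ± 0.30 (adjusted p = 0.975). The ratio of COL4A3 to COL4A4 counts was 0.113, 0.159 and 0.122 in controls and 0.0625, 0.101 and 0.0918 in the knockdown. The groups do not overlap, and the exact permutation p of 0.1 (0.4 adjusted over 4 ratios) is the smallest that 3 against 3 libraries allow.

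COL4A5 (chromosome X, 108439844 to 108697545) went from 30.7, 32.3 and 29.9 CPM to 20.9, 19.3 and 25.3 CPM, 1.41-fold (-0.50 ± 0.11, adjusted p = 0.00369). Its head-to-head partner COL4A6, a chain of smooth muscle and epithelial basement membranes, was near 1 CPM (1.70, 1.08 and 0.838 against 0.911, 0.991 and 0.469 CPM) with overlapping groups (-0.64 ± 0.39, adjusted p = 0.226). COL4A5 to COL4A6 counts ran from 18.1 to 35.7 in controls and from 19.5 to 53.9 in the knockdown. Of the other network-forming collagens, COL8A1, a chain of vessel and corneal matrix, had a log2 change of -0.54 ± 0.26 (adjusted p = 0.131), COL8A2 had at most 3 counts in a library, and COL10A1, the growth plate collagen, had none.

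**Figure D2:**
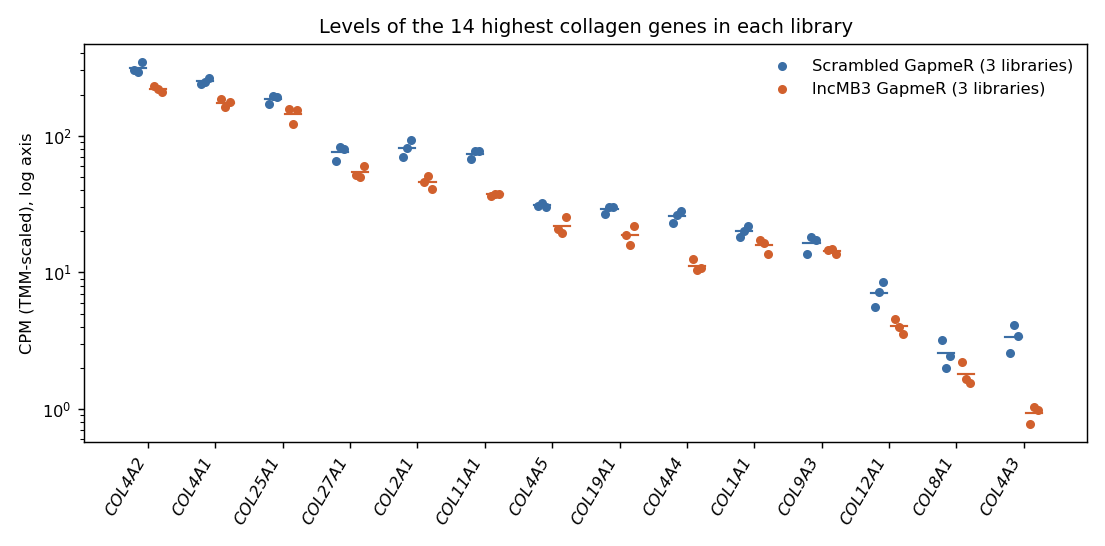
TMM-scaled CPM on a log axis of the 14 collagen genes with the highest mean, 3 control and 3 knockdown libraries each, with a line at each group mean. The groups separate for all but COL9A3 and COL8A1.

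Among the 10 collagens with the highest mean CPM, COL4A4 fell most (2.33-fold), followed by COL11A1 and COL2A1, fibrillar chains of the cartilage type. COL11A1 (chromosome 1, 102876467 to 103108872), a minor fibril chain that sets fibril width, stood at 67.0, 77.5 and 77.1 CPM in controls and 36.4, 37.7 and 37.4 CPM in the knockdown, 1.98-fold lower (-0.99 ± 0.09, adjusted p = 2.22e-05). Its 3 knockdown values lay close together (SD 0.679 CPM). COL2A1 (chromosome 12, 47972965 to 48004554), the major chain of cartilage and vitreous fibrils, went from 69.7, 80.6 and 93.6 CPM to 45.7, 50.6 and 40.9 CPM, 1.78-fold (-0.83 ± 0.11, adjusted p = 0.000209). The ratio of COL2A1 to COL11A1 counts was 1.04, 1.04 and 1.22 in controls and 1.25, 1.34 and 1.09 in the knockdown, with overlapping groups (exact permutation p = 0.2, 0.4 adjusted over 4 ratios). COL11A2, the other partner chain of type XI fibrils, was scarce at 0.234, 1.13 and 0.950 CPM in controls and 1.30, 0.522 and 0.782 CPM in the knockdown.

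COL27A1 (chromosome 9, 114155560 to 114312511), a fibrillar chain of developing cartilage, went from 65.2, 82.1 and 80.4 CPM to 51.4, 49.9 and 60.2 CPM, 1.41-fold (-0.49 ± 0.11, adjusted p = 0.00334). COL1A1 (chromosome 17, 50183289 to 50201632), the major chain of bone and skin fibrils, went from 18.1, 20.1 and 21.8 CPM to 17.3, 16.3 and 13.7 CPM, 1.28-fold (-0.36 ± 0.12, adjusted p = 0.0315). The nearest libraries of the 2 groups differed little. The COL1A1 call was lost without control 2 (adjusted p = 0.095), control 3 (0.128) or knockdown library 3 (0.139), with DESeq2 (0.0513) and with a transcript-length correction (0.0679). Its partner COL1A2 was almost absent, with 4, 2 and 0 counts in controls and 1, 0 and 0 in the knockdown. COL5A1, which starts fibril assembly, was at 1.52, 1.52 and 1.68 CPM against 0.650, 0.835 and 1.25 CPM (-0.71 ± 0.31, adjusted p = 0.0947), and COL5A2 at 0.585 to 0.685 CPM against 0.520 to 0.678 CPM. COL3A1 and COL5A3 had no count and COL24A1 had 1 in all.

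FACIT collagens, which bind to fibril surfaces, held 2 falls and 0 rises among 4 tested (15.9% of all tested genes fell). COL19A1 (chromosome 6, 69866571 to 70209976), which is expressed in developing muscle and by neurons, went from 26.9, 30.3 and 30.3 CPM to 18.9, 15.8 and 21.7 CPM, 1.56-fold (-0.64 ± 0.12, adjusted p = 0.00144). It overlaps 70 exon bases of LMBRD1 on the other strand, a gene at 15.1 to 16.9 CPM in controls and 11.3 to 12.7 CPM in the knockdown. LMBRD1 was itself called lower (-0.38 ± 0.11, adjusted p = 0.018). Without a stated strand setting, reads from the 2 genes cannot be told apart in those bases. COL12A1 (chromosome 6, 75084326 to 75206051), a tendon and ligament collagen, went from 5.56, 7.24 and 8.44 CPM to 4.55, 4.02 and 3.55 CPM, 1.79-fold (-0.84 ± 0.19, adjusted p = 0.0039). COL9A3, a chain of the type IX collagen that coats cartilage fibrils, was at 13.7, 18.2 and 17.2 CPM against 14.7, 14.9 and 13.6 CPM, with overlapping groups (-0.19 ± 0.12, adjusted p = 0.251). Its partners COL9A1 and COL9A2 had at most 5 and 3 counts in a library. COL16A1 was at 0.636 to 0.838 CPM in controls and 0.626 to 1.04 CPM in the knockdown (0.15 ± 0.35, adjusted p = 0.78). COL14A1, COL20A1, COL21A1 and COL22A1 did not pass the filter.

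COL25A1 (chromosome 4, 108808725 to 109302752), a membrane-spanning collagen of neurons that is shed and found in amyloid plaques, was at 170, 195 and 191 CPM in controls and 156, 121 and 154 CPM in the knockdown, a 1.29-fold fall (-0.37 ± 0.10, adjusted p = 0.0144). The groups do not overlap, by a gap smaller than the range within either group. The call was lost without control 2 (-0.33, adjusted p = 0.0707). It was also lost when each library was corrected for gene span, where the log2 change was -0.055 (adjusted p = 0.636). COL25A1 spans 494 kb, the widest of the tested collagens. With that correction COL4A5 (258 kb) moved to -0.29, COL19A1 (343 kb) to -0.38 and COL4A2 (207 kb) to -0.33, all still past the threshold (adjusted p = 0.0385, 0.0122 and 0.00947). The median log2 change of all 23 tested collagens moved from -0.54 to -0.40 with it. The other transmembrane members were scarce: COL23A1 was at 1.23, 2.01 and 1.12 CPM against 1.17, 0.887 and 0.469 CPM (-0.90 ± 0.38, adjusted p = 0.0823), COL13A1 had 1 count in all and COL17A1, the hemidesmosome collagen of skin, none.

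Of the remaining members only COL26A1 was called. It went from 0.820, 1.47 and 1.45 CPM to 0.260, 0.730 and 0.365 CPM (-1.34 ± 0.41, adjusted p = 0.022), on 2, 14 and 7 knockdown counts. The call was lost without control 2 (adjusted p = 0.0955), control 3 (0.0855), knockdown library 1 (0.0636) or knockdown library 3 (0.107) and with DESeq2 (0.0544), and COL26A1 passed the filter through the controls alone. COL7A1, the anchoring fibril collagen, was at 1.29, 1.86 and 1.34 CPM against 1.17, 1.46 and 1.62 CPM (-0.05 ± 0.29, adjusted p = 0.917). Type VI collagen, which forms beaded filaments around cells, was nearly absent. COL6A2 was at 0.585, 1.13 and 0.894 CPM against 0.130, 0.470 and 0.521 CPM (-1.03 ± 0.43, adjusted p = 0.0811), COL6A1 and COL6A3 had at most 5 and 4 counts, COL6A5 at most 2 and COL6A6 none. Of the multiplexins, which carry the endostatin domain, COL15A1 had no count and COL18A1 at most 8, within a locus where 1401 of its exon bases overlap SLC19A1 on the other strand. COL28A1 had 2 counts in all. In total 21 collagens did not pass the filter, 6 of them with no count in any library and none with more than 14 counts in any library. A floor of 3 counts corresponds to 0.147 to 0.176 CPM in controls and 0.156 to 0.390 CPM in the knockdown libraries.

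**Figure D3:**
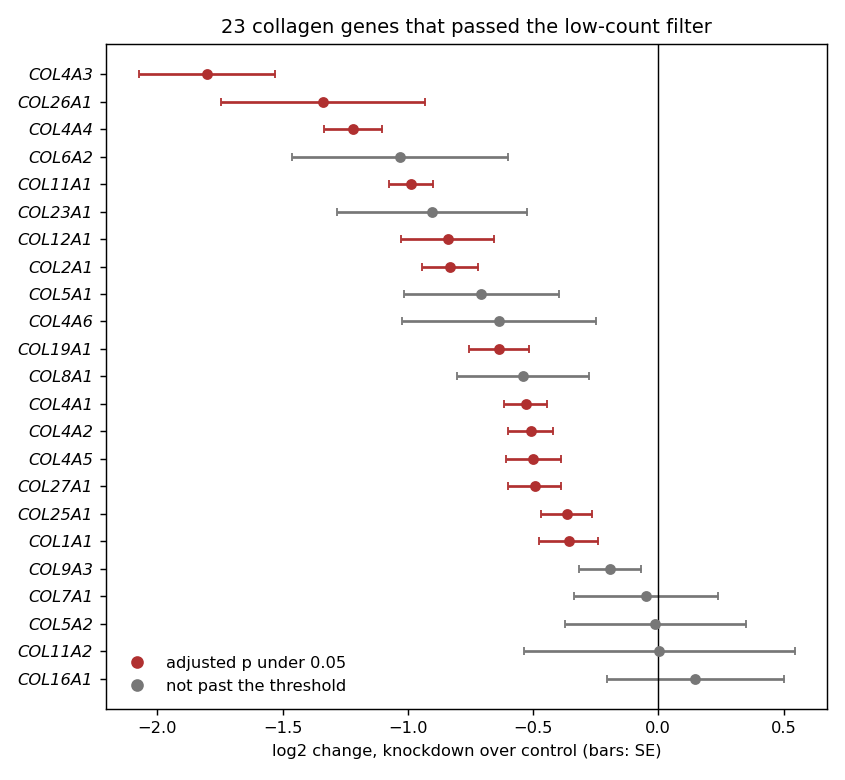
Log2 change, knockdown over control, of the 23 collagen genes that passed the low-count filter, with bars of 1 SE. The 13 genes past an adjusted p of 0.05 (red) all lie below 0, from -1.80 for COL4A3 to -0.36 for COL1A1, and the 10 others are grey.

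Control 1 was the lowest of the 3 controls in 16 of the 23 tested collagens, and in 11 of the 13 that fell. The same share over all tested genes was not counted, so this is not shown to be particular to collagens. On the first principal component of all tested genes (53.3% of variance), control 1 was at -14.5. Controls 2 and 3 were at -30.7 and -35.4 there, and the knockdown libraries at 20.9 to 31.7. Leaving out control 1 kept the same 13 falls. Without the control that is mostly the lowest, the gap widens in most of these genes, so this says little. Without control 2 the falls numbered 10, and without control 3 they numbered 11.

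Genes that make, bind and remove collagen were read from lists. Enzymes and chaperones of collagen synthesis numbered 12 lower and 5 higher of 31 tested, with a median log2 change of -0.12. The 5 rises are 16.1% of those tested, near the 15.9% of all genes, and the 12 falls are 38.7%. Leaving out 1 library gave 8 to 13 falls. The smallest adjusted p belonged to 3 lysyl oxidases, which cross-link secreted collagen. LOXL2 went from 12.5, 15.99 and 20.1 CPM to 7.28, 7.93 and 6.93 CPM (-1.13 ± 0.16, adjusted p = 0.000299), LOX fell 1.76-fold and LOXL1 1.82-fold. LOXL3 was not called (-0.16, adjusted p = 0.579) and LOXL4 was not tested. Larger falls by fold, named after their values were seen, were those of the collagen propeptidase ADAMTS14 (2.89-fold, passing the filter through the controls alone) and the galactosyltransferase COLGALT2 (2.57-fold). CRTAP, part of the prolyl 3-hydroxylase complex, fell 1.35-fold and PXDN, the peroxidase that cross-links type IV collagen, 1.36-fold. SERPINH1, the collagen chaperone HSP47, rose instead, from 294, 276 and 274 CPM to 384, 384 and 356 CPM (0.42 ± 0.08, adjusted p = 0.00186), with no overlap between groups. The other 4 rises, named after their values were seen, were PREB, P3H2, TMEM38B and FKBP14. Rises numbered 2 in all without control 2, 3 without control 3, knockdown library 1 or knockdown library 3, and 3 with upper-quartile scaling.

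Among collagen receptors 6 of 9 tested were lower and 1 was higher (median -0.49). DDR2, a receptor tyrosine kinase for fibrillar collagen, went from 5.68, 15.3 and 11.1 CPM to 4.29, 2.66 and 3.65 CPM (-1.66 ± 0.29, adjusted p = 0.00106). Its relative DDR1 went the other way, from 37.1, 32.7 and 37.6 CPM to 49.95, 46.95 and 50.04 CPM (0.45 ± 0.09, adjusted p = 0.00206). MRC2, which takes up collagen fragments for degradation, fell from 120, 151 and 163 CPM to 80.4, 78.2 and 66.3 CPM (-0.95 ± 0.11, adjusted p = 9.01e-05). The hyaluronan and collagen receptor CD44 fell 1.41-fold, and the collagen-binding integrin chains ITGA1 and ITGA2 fell 1.80-fold and 1.71-fold. Without control 2 the list had 2 rises, and leaving out 1 library gave 4 to 6 falls. The ITGA2 call was lost without control 3 (adjusted p = 0.0844), knockdown library 2 (0.0531) or knockdown library 3 (0.0637), and with DESeq2 (0.0522). ITGB1, their common partner, named after its value was seen, had a log2 change of -0.03 (adjusted p = 0.787).

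Of 12 tested turnover genes 4 were lower and 0 higher (median -0.15). MMP15 and MMP2, which cut matrix proteins, fell 1.96-fold and 1.74-fold. MMP14 and the inhibitor TIMP2 changed less (-0.24 and -0.30), and only the calls of MMP15 and MMP2 held without control 2, control 3 or knockdown library 1. Leaving out any of the 6 libraries ended the call of MMP14, with adjusted p from 0.052 to 0.167, as did DESeq2 (0.0723), testing without a filter (0.0744) and the GC correction (0.115). The lysosomal proteases CTSK (-0.45, adjusted p = 0.0551) and CTSB (-0.15, adjusted p = 0.183) were not called. Interstitial collagenase MMP1 was at 0.636 to 1.93 CPM in controls and 1.46 to 1.82 CPM in the knockdown, and MMP8 and MMP13 had no count.

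Basement membrane genes other than collagens showed 12 falls and 1 rise among 19 tested, with a median log2 change of -0.52. HSPG2 (perlecan), the heparan sulphate proteoglycan of basement membranes, went from 44.3, 62.3 and 87.7 CPM to 31.6, 25.4 and 26.6 CPM (-1.23 ± 0.18, adjusted p = 0.000357). LAMA1, a laminin chain, went from 102, 112 and 135 CPM to 71.3, 63.3 and 64.4 CPM (-0.81 ± 0.10, adjusted p = 0.000143). The laminin chain LAMB2 fell 1.52-fold, the proteoglycan AGRN 1.68-fold, FN1 (fibronectin) 2.04-fold and FBLN2 (fibulin 2) 1.44-fold. SPARC, a collagen-binding glycoprotein and the 1 rise, went from 2.48 to 4.24 CPM (adjusted p = 0.0112); it was named after its value was seen, and its call was lost without knockdown library 3. Without control 1 the list had 2 rises. Fibril-associated genes gave 4 falls and 0 rises of 9 tested (median -0.62). DCN and VCAN passed the low-count filter through the controls alone, and among the other 7 there were 3 falls and a median of -0.35. THBS1 (thrombospondin 1), a matrix glycoprotein that binds collagen, went from 151, 239 and 218 CPM to 78.7, 74.1 and 72.5 CPM (-1.44 ± 0.13, adjusted p = 2.86e-05), control 1 again being the lowest control. MATN2 (matrilin 2) fell 1.98-fold and PRELP, a leucine-rich proteoglycan, 2.73-fold. DCN (decorin), which coats collagen fibrils, was at or under 1.27 CPM throughout, and its call was lost without control 1, control 2, knockdown library 1 or knockdown library 3 (adjusted p from 0.0807 to 0.146), and with DESeq2 (0.111). TNC (tenascin C), a matrix glycoprotein, was higher in every knockdown library (2.99, 2.09 and 2.03 CPM) than in every control (1.64, 1.03 and 1.45 CPM) but was not called (0.74 ± 0.28, adjusted p = 0.0582). VCAN (versican), a large proteoglycan, was not called (-0.62 ± 0.38, adjusted p = 0.228). In all 5 lists the tested share that fell can be read against the 15.9% of all tested genes.

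**Figure D4:**
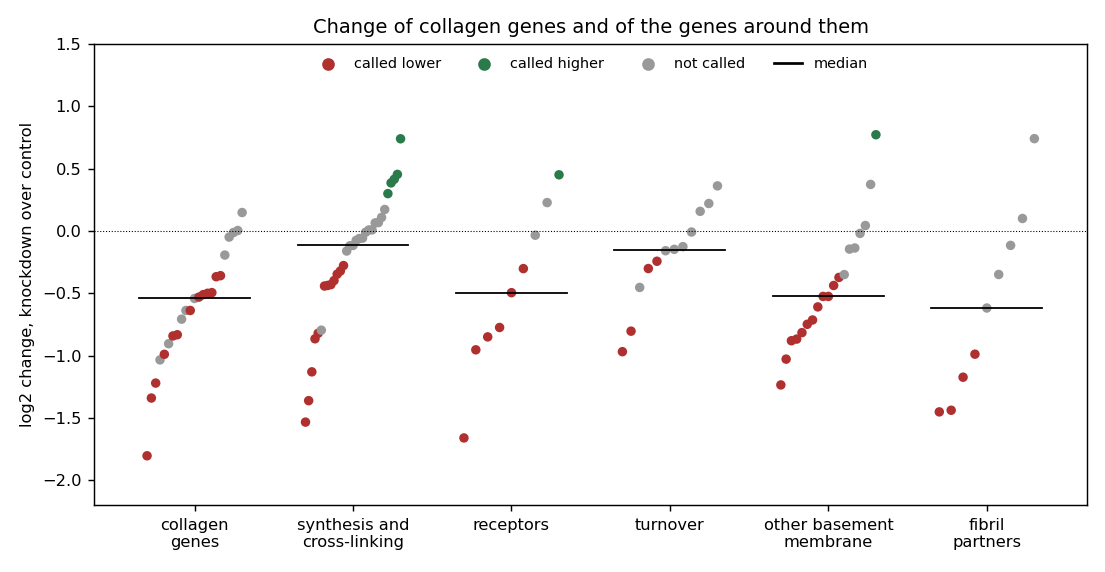
Log2 change, knockdown over control, of each tested gene in the collagen set and in 5 lists around it, with a line at each median. The median is -0.54 for collagens, -0.12 for synthesis, -0.49 for receptors, -0.15 for turnover, -0.52 for other basement membrane genes and -0.62 for fibril partners (-0.35 without DCN and VCAN, which passed the low-count filter through the controls alone), and rises are seen among synthesis genes, receptors and other basement membrane genes.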

How the data were processed

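PolyA+ RNA of 6 D283 Med libraries was sequenced from TruSeq Stranded mRNA libraries, per the labels. The submitters' processing notes name RSEM, STAR 2.7.9a and Trim Galore 0.6.4, and the build GRCh38.p13. No source used here names the annotation or the strand setting. The deposited files hold whole-number counts for 60708 genes, and no header or label says whether they are rounded RSEM estimates. The 44 PAR_Y rows were added to their X copies. Symbols came from a name table, and coordinates, biotypes and merged exon lengths from GENCODE release 29 (GRCh38).

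KD was tested against SCR in edgeR 4.0.16 under R 4.3.3, with the quasi-likelihood F test, no covariates, TMM scaling and filterByExpr (0.546 CPM in 3 libraries). Benjamini-Hochberg adjustment ran over the 14673 genes that passed, and an adjusted p printed with no tool or setting beside it comes from that fit. The SE of a log2 change was its size over the square root of F. The method was tested on simulated counts, 3 libraries against 3. It recovered 80 of 100 genes changed 1.5-fold and 99 of 100 changed 2-fold, and 10 of its 189 calls were unchanged genes. No smaller fold and no scarce gene was planted, so the test does not cover the smaller falls or the scarcest collagens. Within a group the libraries differed beyond counting noise (chi-square over its degrees of freedom, 2.73 to 16.5), so none was taken as another sequenced again. This cannot tell separate cultures from separate libraries of 1 culture. Collagens, lists, motifs and the rule for named genes (all collagens, up to 6 members per list by adjusted p) were chosen with earlier results of these data known. Protein features were not analysed here. Figures were drawn with matplotlib 3.10.9.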

Additional observations from a re-analysis of the deposited data

How the results depend on the processing

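The collagens were refitted with DESeq2 1.42.0, with limma-voom (limma 3.58.1), with upper-quartile or RLE scaling, without a filter or with one at 1 CPM in 3 libraries, with a replicate block, and without each library. Corrections for GC content, transcript length and gene span were added after seeing the data. Between 10 and 13 collagens fell and 0 rose in every one of these and at an adjusted p under 0.01. The median log2 change of the tested collagens, -0.54 in the main fit, was -0.40 with the gene-span correction. It was -0.49 with the transcript-length correction, -0.53 with the GC correction and -0.60 with upper-quartile scaling. Of the 13 falls, 10 kept their call in every refit that tested them and COL25A1, COL1A1 and COL26A1 did not. The count at 1 CPM in 3 libraries was 17 with raw totals too, and 14 in all 6.

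Same-numbered libraries deviated together weakly at most (correlations 0.0315, 0.0963 and -0.0334), so the numbers were not taken as pairs. Libraries of different number ran from -0.0777 to 0.045, so the value of 0.0963 for number 2 was the largest. With the replicate block 13 collagens fell, 2385 genes fell and 2357 rose in all, and MMP14 lost its call (adjusted p = 0.065).

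Signs turned only in collagens that were not called. Leaving out 1 library, COL7A1 ran from -0.16 to 0.14, COL11A2 from -0.39 to 0.40, COL16A1 from -0.13 to 0.34 and COL5A2 from -0.10 to 0.055. COL7A1 was at 0.053 with the transcript-length and 0.024 with the GC correction. COL11A2 was at -0.054 with upper-quartile scaling, -5.17e-05 with the replicate block and -0.034 with the gene-span correction. COL5A2 was at 0.16, 0.064 and 0.012 with the span, length and GC corrections.

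Over all genes, leaving out 1 library gave 1440 to 2510 falls and 1264 to 2604 rises, and an adjusted p under 0.01 gave 1269 and 1190. Leaving out 1 library, rises ran from 1 to 2 in receptors, 2 to 5 in synthesis, 0 to 1 in turnover, 0 to 1 in fibril partners and 0 to 2 in other basement membrane genes. Falls then ran from 8 to 13 in synthesis, 4 to 6 in receptors, 2 to 4 in turnover and 3 to 4 in fibril partners. They ran from 1 to 2 in mesenchymal markers and stayed at 12 in other basement membrane genes. Synthesis rises were 3 with upper-quartile scaling, DESeq2, an adjusted p under 0.01 and the GC correction. At that threshold turnover falls were 2, mesenchymal falls 1 and basement membrane rises 0. Mesenchymal falls were 1 with DESeq2, and mesenchymal rises 1 with the GC correction. Fibril partner rises were 1 with the replicate block, the transcript-length and the GC correction, and 2 with the gene-span correction. The cause of these moves was not tested. The order per kilobase by RefSeq protein length was not run. The 21 collagens under the filter were not compared, 6 of them with no count.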
